A study of Arabidopsis thaliana with 9 samples.

Results

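To examine which functions and gene families differ together in *bbx11-1*, a mutant of the B-box protein gene *BBX11*, its 3 libraries were compared with those of the wild type Col-0. The comparison covered the 19019 loci, of 33602 in the files, whose mean was at least 1 FPKM (fragments per kilobase of transcript, scaled to the mapped reads of the library) in either genotype. RNA came from whole 4-d-old Arabidopsis seedlings, with 3 biological replicates of *bbx11-1*, of *pif4-2* (a mutant of the bHLH factor gene *PIF4*) and of Col-0. All were grown in constant red light of 94 μmol/m2/s on medium with sucrose, and both mutants are in the Col-0 ecotype. The kind of lesion that the *bbx11-1* allele carries and the number of seedlings pooled per library are not given in the sources used here. The *pif4-2* libraries were part of the fit, so their spread enters the SE and adjusted p values below. Their levels are given as a second reading beside the same Col-0 libraries, which are labelled as the wild-type control for BBX11. A deviation of these Col-0 libraries shifts both mutants the same way. Likeness of *bbx11-1* and *pif4-2* below is therefore not independent.

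In red light, phytochrome B is converted into its active form, moves into the nucleus and brings about the turnover of PIF transcription factors such as that encoded by *PIF4*, which otherwise promote hypocotyl elongation through auxin and cell wall genes. B-box proteins are zinc finger transcriptional regulators that act on several branches of light signalling. Light also governs photosynthesis, flavonoid and glucosinolate synthesis, and sugar status, and the groups below are ordered from light and hormone genes to stress, cell wall, metabolism and position in the genome.

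The spacing of the low FPKM values corresponded to 17390000 to 19560000 counted reads per *bbx11-1* library and 16230000 to 17850000 per Col-0 library, so that 1 FPKM in a transcript of 1 kb stood for 17.4 to 19.6 and 16.2 to 17.85 reads. No libraries held identical values. The largest component among the 6 libraries (37.4% of the variance) set replicate 1 of both genotypes apart from the others, and the next (24.9%) separated the genotypes, at 17.8, 2.78 and 20.4 in *bbx11-1* and −9.42, −17.6 and −14.0 in Col-0. Whole seedlings were measured, so fewer cells of a type and less RNA per cell cannot be told apart. Of 16 root hair and endodermis markers, 1 was higher and 0 lower in every *bbx11-1* library than in every Col-0 library, with a median log2 difference of −0.01. All 8 tested seed storage and oil body markers had log2 differences above 0 (median 0.35), but the medians of the replicate pairs ran from 0.99 over 0.30 to −0.22. Pairs join libraries by replicate number alone. Whether same-numbered libraries were grown or prepared together is not given in the sources used here. The 8 stomatal lineage markers had a median of −0.28, with pair medians of −0.26, −0.15 and −0.34, but of 0.01 with a minimum mean of 5 FPKM. The part of these cell types in the results was not tested.

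Transcripts of *BBX11* (*AT2G47890*, chromosome 2, 19607996 to 19610287 in TAIR10.1) were at 10.7, 9.39 and 7.66 FPKM in *bbx11-1*, at 17.0, 16.4 and 15.65 FPKM in *pif4-2*, and at 15.7, 16.4 and 78.2 FPKM in Col-0. Every *bbx11-1* library was below every wild-type library, but replicate 3 of Col-0 sets the size of the difference. The log2 fold change was −1.52 (SE 0.46, limma with Benjamini-Hochberg adjustment, adjusted p = 0.228), and −0.77 without that library. The adjusted p ran between 0.0665 and 0.568 over all alternatives. The 256 tested loci within 1 Mb of *BBX11* had a median log2 difference of 0.00, with 16 (6.25%) higher and 9 (3.52%) lower without overlap. Among them *CB5-C*, a cytochrome b5 gene, was at 31.2, 31.7 and 22.75 FPKM in *bbx11-1*, against 42.1, 43.0 and 43.8 FPKM in Col-0. Its log2 fold change was −0.60 (SE 0.11, limma adjusted p = 0.049, and 0.162 with the 6 libraries alone).

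The light and auxin genes that the study followed had overlapping values, and no growth hormone list had a member past the test. *PIF4* was at 31.0, 28.9 and 28.6 FPKM in *bbx11-1*, against 35.2, 30.2 and 25.7 FPKM in Col-0, and *PHYB* was at 21.95, 22.8 and 24.0 FPKM in *bbx11-1*, against 20.7, 19.0 and 23.9 FPKM in Col-0. The values of the genotypes overlapped for both genes. Their log2 fold changes were −0.03 (SE 0.10, adjusted p = 0.957) and 0.11 (SE 0.09, adjusted p = 0.739). *PHYA*, the photoreceptor for far-red light, was at 53.9, 57.9 and 61.2 FPKM in *bbx11-1*, against 43.0, 52.4 and 48.5 FPKM in Col-0 (adjusted p = 0.265), the only one of 12 phytochrome and PIF genes whose groups did not overlap.

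*IAA19* and *IAA29*, auxin-induced repressors of auxin signalling, and *YUC8*, an auxin synthesis gene, had log2 fold changes of 0.35 (SE 0.24), −0.11 (SE 0.28) and 0.12 (SE 0.17), with adjusted p of 0.676, 0.937 and 0.874. *IAA19* was at 7.26, 7.01 and 9.54 FPKM in *bbx11-1*, against 3.64, 8.83 and 6.76 FPKM in Col-0. None of 24 Aux/IAA genes had groups that did not overlap (median log2 difference 0.02). Of 56 SAUR genes, small auxin-up RNAs, 10 (17.9%, against 5.85% of all loci) were lower and 1 higher without overlap. None of them passed the limma test, and 12 lower and 3 higher had an unadjusted p below 0.05. None of the 33 clock genes, 10 brassinosteroid synthesis genes, 7 gibberellin oxidase genes or 9 type-A cytokinin response regulators passed the limma test, with medians of 0.02, −0.04, 0.16 and −0.05, and 6, 1, 4 and 0 had an unadjusted p below 0.05. Among the auxin-conjugating GH3 genes, *WES1* was at 21.6, 24.2 and 24.5 FPKM in *bbx11-1*, against 14.7, 15.7 and 19.4 FPKM in Col-0 (log2 fold change 0.49, SE 0.11, adjusted p = 0.115, and 0.0461 with the replicate block).

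Across all tested loci, 17 rose and 11 fell by 2-fold or more with an adjusted p under 0.05, which is 0.0894% and 0.0578% of the loci. Without a fold threshold, 53 were higher and 33 lower (0.279% and 0.174%), and fitted with a block for the replicate number 110 were higher and 47 lower. With a correction for GC content and length the split was 34 higher and 36 lower. All 3 *bbx11-1* libraries lay above all 3 Col-0 libraries at 1296 loci (6.81%) and below them at 1112 (5.85%). These last shares are the background against which the members of each list are read below.

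The calls depend on the libraries and on the fit. Fitted without *pif4-2*, only *GRP5* and *AT2G41640* of the 17 higher genes were kept, with 6 of the 11 lower ones. Leaving out Col-0 replicate 1, 2 or 3 kept 5, 14 or 4 of the 17, and leaving out *bbx11-1* replicate 1, 2 or 3 kept 10, 14 or 4. Of the 11 lower genes, 8 or 9 were kept each time. The adjusted p stayed below 0.05 in all 6 of these fits for *AT2G41640*, *ZAT7*, *AT5G52050*, *RHL41* and *AT5G10695* among the higher genes. All 6 fits included *pif4-2*. In the limma fit without it, *ZAT7*, *AT5G52050* and *AT5G10695* did not pass (adjusted p = 0.0552, 0.0578 and 0.0647). *AT2G41640* and *RHL41* did (0.0175 and 0.0343). Of the 53 higher loci without a fold threshold, 9 to 36 were kept with a single library left out, and of the 33 lower ones 11 to 26. Fitted without *pif4-2*, only 3 of the 53 and 6 of the 33 were kept. Most calls named below therefore depend on the spread of the *pif4-2* libraries.

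Transcripts of the rapid stress response, genes known to be induced within minutes by touch, wounding, cold or microbial elicitors, lay above Col-0 in *bbx11-1* as a group, and in *pif4-2* as well. Library medians relative to the Col-0 mean were 0.32, 0.46 and 0.51 in *bbx11-1*, 0.62, 0.67 and 0.58 in *pif4-2*, and −0.25, 0.25 and 0.03 in Col-0. Of 32 tested members, 30 had log2 differences above 0 in *bbx11-1*, with a median of 0.41, against 0.00 over all loci. At 16 members (50%) the 3 *bbx11-1* libraries lay above the 3 Col-0 libraries, and at 0 below. *WRKY40*, *RHL41* and *WRKY33* passed the test, and 9 members passed with the replicate block. The median was 0.54, 0.20 and 0.59 in the replicate pairs 1, 2 and 3, and ran between 0.30 (without Col-0 replicate 1) and 0.54 (without Col-0 replicate 2) when single libraries were left out. Without Col-0 replicate 1, the lowest library for this list, the same number of members (16) did not overlap, against 12.3% of all loci.

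*WRKY40*, which encodes a WRKY factor known as a regulator of defence and abscisic acid responses, was at 55.9, 52.6 and 72.7 FPKM in *bbx11-1*, at 65.6, 69.3 and 59.7 FPKM in *pif4-2*, and at 22.8, 33.2 and 29.1 FPKM in Col-0. Its log2 fold change in *bbx11-1* was 1.08 (SE 0.15, adjusted p = 0.0129), and the adjusted p reached 0.0537 without Col-0 replicate 3. *WRKY18*, its close relative, was at 16.3, 11.6 and 14.5 FPKM in *bbx11-1*, against 4.26, 8.36 and 6.03 FPKM in Col-0 (log2 fold change 1.15, SE 0.20, adjusted p = 0.0329). All *bbx11-1* values of both genes exceeded all Col-0 values, and the pair difference was smallest in replicate 2. *WRKY33*, required for camalexin synthesis and resistance to necrotrophic fungi, was at 72.7, 63.6 and 85.6 FPKM in *bbx11-1*, against 29.3, 45.4 and 43.4 FPKM in Col-0 (log2 fold change 0.92, SE 0.15, adjusted p = 0.0314). The *pif4-2* libraries had 27.9, 23.2 and 23.6 FPKM of *WRKY18*, and 92.6, 95.5 and 86.1 FPKM of *WRKY33*. *WRKY18* lost its call without Col-0 replicate 1 or 3 or *bbx11-1* replicate 1 or 3 (adjusted p up to 0.135), and *WRKY33* without Col-0 replicate 3 or *bbx11-1* replicate 1 or 3 (up to 0.128). Of all 50 tested WRKY genes, 12 (24.0%) were higher without overlap and 0 lower, with a median of 0.13.

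The ZAT and AZF genes encode C2H2 zinc finger repressors with an EAR motif that respond to salt, cold, oxidative stress and wounding. At 6 of the 7 tested members, of which *RHL41* and *STZ* also belong to the rapid stress list, all *bbx11-1* values exceeded all Col-0 values. The median was 0.52. Library medians relative to the Col-0 mean were 0.47, 0.71 and 0.62 in *bbx11-1*, 0.71, 0.67 and 0.48 in *pif4-2*, and −0.03, 0.12 and −0.01 in Col-0. *ZAT7* was at 9.07, 6.85 and 9.51 FPKM in *bbx11-1*, against 3.71, 3.69 and 2.82 FPKM in Col-0 (log2 fold change 1.2, SE 0.14, adjusted p = 0.00434). *RHL41*, also called ZAT12 and known for its part in responses to high light and reactive oxygen, was at 24.8, 24.1 and 28.0 FPKM in *bbx11-1*, against 14.4, 13.9 and 15.4 FPKM in Col-0 (log2 fold change 0.79, SE 0.08, adjusted p = 0.00358). In *pif4-2*, *ZAT7* was at 13.8, 13.4 and 15.1 FPKM and *RHL41* at 33.1, 33.75 and 30.8 FPKM. *STZ* was at 45.6, 54.8 and 56.0 FPKM in *bbx11-1*, against 24.0, 35.7 and 34.1 FPKM in Col-0 (log2 fold change 0.74, SE 0.14), with an adjusted p that rounds to 0.05 without passing and is 0.0137 with the replicate block. *AT3G46080*, a C2H2 gene next to *ZAT7* that the list does not hold, was at 6.25, 4.65 and 7.78 FPKM in *bbx11-1*, against 2.85, 2.36 and 1.92 FPKM in Col-0 (adjusted p = 0.022). *ZAT7* and *AT3G46080* are neighbours of like sequence, and the treatment of reads that align to both is not given in the sources used here.

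In the ERF and DREB family, 10 of 55 members (18.2%) were higher without overlap and 2 lower, and the median was 0.05. *ERF4*, a repressor of ethylene and jasmonate responses, was at 41.8, 43.4 and 38.3 FPKM in *bbx11-1*, against 23.1, 32.8 and 26.5 FPKM in Col-0 (adjusted p = 0.055, and 0.0376 with the replicate block). *AT5G51190* and *DREB26*, members of the same family, had log2 fold changes of 0.74 and 0.60 (adjusted p = 0.152 and 0.144, both 0.0466 with the block). *TCH3*, a calmodulin-like gene and the most abundant of the stress list, was at 150.3, 142.9 and 150.3 FPKM in *bbx11-1*, against 72.5, 148.1 and 95.9 FPKM in Col-0. Its Col-0 replicate 2 lay within the mutant range. Of 17 calmodulin and calmodulin-like genes, 2 were higher and 1 lower without overlap.

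The 2-fold calls also held genes outside these lists. *BCB*, a blue-copper-binding protein, was at 52.8, 38.1 and 57.2 FPKM in *bbx11-1*, against 16.6, 28.1 and 18.0 FPKM in Col-0 (log2 fold change 1.24, SE 0.20). *AT5G52050*, a MATE efflux transporter, was at 22.1, 18.8 and 25.04 FPKM in *bbx11-1*, against 8.69, 11.4 and 11.3 FPKM in Col-0 (log2 fold change 1.03, SE 0.13), and *AT3G29000*, an EF-hand calcium-binding protein, at 4.36, 5.63 and 4.43 FPKM in *bbx11-1*, against 1.94, 2.81 and 1.67 FPKM in Col-0 (log2 fold change 1.02, SE 0.19). *AT2G41640*, a family 61 glycosyltransferase, had the smallest p of the higher genes, with 29.9, 24.5 and 29.4 FPKM in *bbx11-1*, against 12.6, 14.0 and 11.8 FPKM in Col-0 (log2 fold change 1.09, SE 0.10, adjusted p = 0.00146). The groups of these genes did not overlap. In *pif4-2*, *BCB* was at 78.5, 74.9 and 58.25 FPKM, *AT5G52050* at 28.5, 29.9 and 26.15 FPKM, and *AT2G41640* at 26.2, 26.5 and 24.0 FPKM. Of 86 NBS-LRR resistance genes, 19 (22.1%) were higher and 1 lower without overlap, and *AT5G41740* passed the test (log2 fold change 0.76, SE 0.14, adjusted p = 0.0427), a call lost in 5 of the 6 fits with a library left out (up to 0.179). Of 244 receptor-like kinases, 38 (15.6%) were higher and 10 lower, none of them past the limma test (36 at an unadjusted p below 0.05), with *FER*, a receptor of RALF peptides in the cell wall, at 71.8, 71.5 and 79.2 FPKM in *bbx11-1*, against 57.1, 59.2 and 61.0 FPKM in Col-0 (adjusted p = 0.0838). The list leaves out *LYK5*, a LysM receptor-like kinase, which was at 4.55, 4.82 and 5.73 FPKM in *bbx11-1*, against 3.00, 2.92 and 3.30 FPKM in Col-0 (log2 fold change 0.63, SE 0.12, adjusted p = 0.047), a call lost with any single library left out (up to 0.186).

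WRKY factors bind the W-box, whose core reads TTGAC, and bZIP and bHLH factors of light signalling bind the G-box, CACGTG. Both were searched on either strand in the 250 bases upstream of the annotated start of 18857 tested nuclear loci (RefSeq TAIR10.1), and the W-box core was present in 44.5% and the G-box in 7.48% of them. Among the 32 rapid stress genes, 21 (65.6%) held at least 1 W-box core and 9 (28.1%) at least 2, against 13.8% of all promoters. The share was 52.9% among the 17 called higher genes, 32.1% among 28 carbon starvation genes and 31.8% among 22 aliphatic glucosinolate genes, while 7 of 24 flavonoid genes (29.2%) held a G-box. The CGCGTT rapid stress element was in 3 of the 32 stress promoters (9.38%) and in 2.73% of all. These matches describe letters and not binding. Shown are *WRKY40* and *SZF1*, a tandem zinc finger gene of the stress list with the most W-box cores of those printed, *AT2G41640*, the higher gene of smallest p, and *DFR*, a flavonoid gene, each 5′ to 3′ on the gene's strand with the W-box core (its reverse complement GTCAA included) or, in *DFR*, the G-box in capitals. *WRKY40* lies at chr1:30383311-30383560 (plus strand), *SZF1* at chr3:20775970-20776219 (plus), *AT2G41640* at chr2:17360124-17360373 (plus) and *DFR* at chr5:17166033-17166282 (minus).
WRKY40: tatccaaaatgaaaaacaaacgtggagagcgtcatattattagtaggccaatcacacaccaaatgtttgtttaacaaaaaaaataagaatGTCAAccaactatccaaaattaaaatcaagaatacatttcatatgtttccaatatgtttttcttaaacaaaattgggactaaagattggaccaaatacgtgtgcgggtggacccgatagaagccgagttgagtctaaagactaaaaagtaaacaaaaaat
SZF1: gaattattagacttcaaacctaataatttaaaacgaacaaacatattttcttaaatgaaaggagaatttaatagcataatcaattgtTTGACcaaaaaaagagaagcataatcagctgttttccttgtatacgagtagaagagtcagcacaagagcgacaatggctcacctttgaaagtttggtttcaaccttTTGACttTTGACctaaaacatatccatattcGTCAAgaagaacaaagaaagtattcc
AT2G41640: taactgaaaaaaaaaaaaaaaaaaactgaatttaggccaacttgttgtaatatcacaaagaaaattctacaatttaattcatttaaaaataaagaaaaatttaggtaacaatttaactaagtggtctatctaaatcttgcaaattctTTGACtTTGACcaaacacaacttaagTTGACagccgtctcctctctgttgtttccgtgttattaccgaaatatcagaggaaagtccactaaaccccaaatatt
DFR: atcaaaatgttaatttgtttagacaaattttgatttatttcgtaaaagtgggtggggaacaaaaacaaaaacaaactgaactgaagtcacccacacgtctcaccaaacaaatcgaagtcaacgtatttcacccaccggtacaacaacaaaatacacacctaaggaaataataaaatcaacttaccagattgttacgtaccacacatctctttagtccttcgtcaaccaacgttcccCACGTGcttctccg

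The printed stretches hold 1 W-box core in *WRKY40*, 4 in *SZF1*, 3 in *AT2G41640*, and 1 G-box in *DFR*, which also holds 2 W-box cores left in lower case. *SZF1* was at 109.95, 117.8 and 134.99 FPKM in *bbx11-1*, against 59.4, 89.8 and 78.5 FPKM in Col-0 (log2 fold change 0.68, adjusted p = 0.0611, and 0.0332 with the replicate block). The *DFR* values overlapped, with 6.13, 6.78 and 3.47 FPKM in *bbx11-1*, against 6.16, 7.98 and 11.2 FPKM in Col-0.

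**Figure D1:**
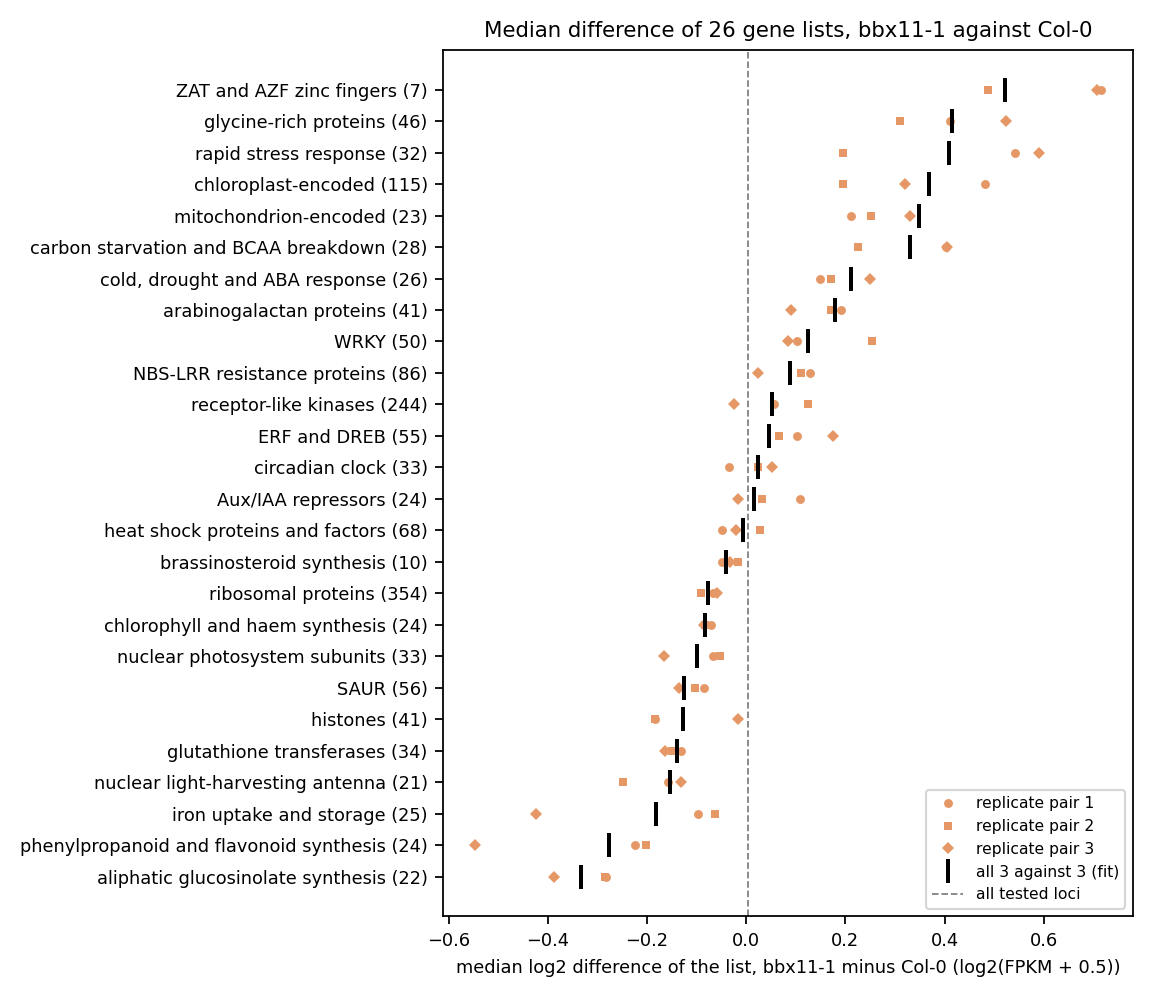
Median log2 difference (x axis, log2(FPKM + 0.5), *bbx11-1* minus Col-0) of 26 gene lists (y axis, number of tested loci in brackets). Black bars are medians of the fit, orange symbols medians of the 3 same-numbered library pairs, and the dashed line all tested loci; ZAT, glycine-rich and rapid stress genes lie at the top (0.52, 0.42 and 0.41) and aliphatic glucosinolate genes at the bottom (−0.33).

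Genes for glycine-rich proteins, many of them secreted into the cell wall and some RNA-binding, had the most members past the test of all lists. Of 46 tested members, 43 had log2 differences above 0 (median 0.42), and at 18 (39.1%) the *bbx11-1* values lay above all Col-0 values, with 0 below. Past the test were 6 members, of which *GRP5*, *AT1G07135* and *AT3G04640* changed at least 2-fold, and 12 passed with the replicate block. The medians of the pairs were 0.41, 0.31 and 0.52. Library medians relative to the Col-0 mean were 0.31, 0.44 and 0.71 in *bbx11-1*, 0.25, 0.31 and 0.40 in *pif4-2*, and −0.18, 0.05 and 0.11 in Col-0.

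*GRP5* was at 9.67, 9.20 and 16.8 FPKM in *bbx11-1*, against 3.13, 2.81 and 3.76 FPKM in Col-0 (log2 fold change 1.69, SE 0.25, adjusted p = 0.0211), the largest rise of all loci called higher. *AT1G07135* was at 53.4, 46.1 and 76.4 FPKM in *bbx11-1*, at 90.5, 85.2 and 91.9 FPKM in *pif4-2*, and at 17.1, 28.3 and 21.7 FPKM in Col-0. *AT3G04640* was at 12.95, 13.1 and 22.4 FPKM in *bbx11-1*, against 5.52, 8.55 and 6.05 FPKM in Col-0 (log2 fold change 1.18, SE 0.21). Replicate 3 was the highest *bbx11-1* library for all 3 genes. Without it the list had 1 member past the test, without Col-0 replicate 1 or 3 it had 1 or 0, and without any other library 4 or 5.

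*GRP-3*, which encodes a ligand of wall-associated kinases, was at 303.4, 343.9 and 350.9 FPKM in *bbx11-1*, against 152.4, 209.4 and 206.4 FPKM in Col-0 (log2 fold change 0.82, SE 0.14, adjusted p = 0.0352). Its neighbour *GRP3S*, the most abundant of the list, was at 2990, 2830 and 3555 FPKM in *bbx11-1*, against 2256, 2319 and 1979 FPKM in Col-0 (log2 fold change 0.51, SE 0.12, adjusted p = 0.12). *GRP9*, *AT2G05510* and *AT2G05540* of the same cluster on chromosome 2 had log2 fold changes of 0.80, 0.89 and 0.75. These cluster genes are tandem copies of like sequence, so how reads were divided among them is uncertain. *DOT1* was at 56.9, 55.7 and 96.8 FPKM in *bbx11-1*, against 24.4, 26.2 and 39.1 FPKM in Col-0 (log2 fold change 1.19), and *GRP23* (*AT2G32690*) at 64.1, 95.1 and 117.5 FPKM in *bbx11-1*, against 21.4, 39.0 and 54.9 FPKM in Col-0 (log2 fold change 1.31). Both passed only with the replicate block (adjusted p = 0.000752 and 0.0033, against 0.065 and 0.115 without it). Among the RNA-binding cold shock domain members, *GRP2B* was at 43.0, 39.0 and 49.0 FPKM in *bbx11-1*, against 24.4, 28.9 and 30.2 FPKM in Col-0 (adjusted p = 0.0237).

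Other cell wall lists had fewer calls. Arabinogalactan proteins, heavily glycosylated proteins of the cell surface, were higher without overlap at 12 of 41 members (29.3%) and lower at 1 (median 0.18). *AGP1* was at 72.3, 69.6 and 76.5 FPKM in *bbx11-1*, against 48.1, 55.9 and 55.9 FPKM in Col-0 (log2 fold change 0.45, SE 0.08, adjusted p = 0.047). This call was lost in all 6 fits with a library left out, at adjusted p up to 0.179. *XTH24*, an enzyme that cuts and rejoins xyloglucan, was at 146.6, 138.1 and 137.4 FPKM in *bbx11-1*, against 83.0, 104.6 and 97.5 FPKM in Col-0 (log2 fold change 0.57, SE 0.10, adjusted p = 0.0314), the one of 26 XTH genes past the test. *LRX3*, a leucine-rich repeat extensin that anchors RALF signalling in the wall and that the extensin list leaves out, was at 85.0, 79.8 and 104.9 FPKM in *bbx11-1*, against 44.5, 56.4 and 58.3 FPKM in Col-0 (adjusted p = 0.0267). *XTH24* lost its call in 5 of those 6 fits and *LRX3* in 3, at adjusted p up to 0.101 and 0.0952. *PHI-1*, of the EXORDIUM family, was at 41.7, 38.1 and 41.6 FPKM in *bbx11-1*, at 126.1, 93.5 and 92.6 FPKM in *pif4-2*, and at 11.7, 25.8 and 20.5 FPKM in Col-0 (adjusted p in *bbx11-1* 0.0706). None of 23 expansins, 30 cellulose synthase genes, 61 extensin and proline-rich genes and 101 pectin enzymes passed the limma test, with medians of −0.04, 0.06, 0.16 and 0.01, and 4, 2, 6 and 7 had an unadjusted p below 0.05.

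Genes of carbon starvation and of branched-chain amino acid breakdown, which supply respiration when sugar is short, had the largest share of members above Col-0 after the ZAT genes among the lists of 7 or more tested members. Of 28 tested, 27 had log2 differences above 0 (median 0.33), and 17 (60.7%) lay above Col-0 without overlap, with 0 below. Without replicate 1 of both genotypes that count was 24 (85.7%, against 18.1% of all loci). The pair medians were 0.40, 0.23 and 0.40. Library medians relative to the Col-0 mean were 0.27, 0.29 and 0.43 in *bbx11-1*, 0.31, 0.31 and 0.10 in *pif4-2*, and −0.12, 0.10 and 0.02 in Col-0. *BCAT-2*, *SEN1* (*AT4G35770*), *AT1G21400* and *MCCA* passed the test.

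*BCAT-2*, a branched-chain amino acid transaminase, was at 5.88, 4.81 and 6.90 FPKM in *bbx11-1*, at 2.61, 3.28 and 2.51 FPKM in *pif4-2*, and at 2.22, 2.95 and 2.79 FPKM in Col-0 (log2 fold change 1.01 in *bbx11-1*, SE 0.16, adjusted p = 0.0228). For *BCAT-2* the *pif4-2* values did not reach those of *bbx11-1*, and most were within the Col-0 range or near it. *SEN1*, a rhodanese-like gene strongly induced in darkness and senescence, was at 115.5, 118.6 and 144.1 FPKM in *bbx11-1*, at 88.0, 102.1 and 71.3 FPKM in *pif4-2*, and at 53.6, 76.5 and 63.0 FPKM in Col-0 (log2 fold change 0.97, SE 0.15, adjusted p = 0.0228). *AT1G21400*, a subunit of the branched-chain keto acid dehydrogenase, was at 33.7, 35.1 and 37.1 FPKM in *bbx11-1*, against 22.5, 25.9 and 24.2 FPKM in Col-0 (log2 fold change 0.54, SE 0.09, adjusted p = 0.0267). *MCCA*, a subunit of the methylcrotonyl-CoA carboxylase of leucine breakdown, was at 36.3, 32.0 and 40.2 FPKM in *bbx11-1*, against 23.1, 25.3 and 22.7 FPKM in Col-0 (log2 fold change 0.59, SE 0.11, adjusted p = 0.0418). The *bbx11-1* values of these genes all exceeded those of Col-0. In *pif4-2*, *AT1G21400* was at 25.1, 29.9 and 26.1 FPKM and *MCCA* at 30.1, 30.5 and 24.6 FPKM, partly above the Col-0 range. None of the 4 passed without Col-0 replicate 1, without Col-0 replicate 3 or without *bbx11-1* replicate 3, and 2 or 3 passed without any other library.

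Further steps of the pathway had log2 differences above 0 without passing the test. *BCE2*, another subunit of the dehydrogenase, and *IVD*, the isovaleryl-CoA dehydrogenase, had log2 fold changes of 0.33 and 0.38, and *DIN10*, a raffinose synthase-like gene of the dark response, of 0.49 (adjusted p = 0.104). *ASN1*, the dark-induced asparagine synthetase, was at 15.1, 19.9 and 25.4 FPKM in *bbx11-1*, against 10.9, 15.2 and 10.6 FPKM in Col-0, with overlapping groups. The class II trehalose phosphate synthases *TPS8*, *TPS9*, *TPS10* and *TPS11*, marker genes of low sugar, had log2 fold changes of 0.33, 0.36, 0.39 and 0.37 without overlap of the groups. Cold, drought and abscisic acid genes had a median of 0.21, with 8 of 26 (30.8%) higher and 1 lower without overlap. Among them *RAB18*, a dehydrin, was at 29.96, 32.1 and 23.5 FPKM in *bbx11-1*, against 16.8, 20.1 and 17.7 FPKM in Col-0 (adjusted p = 0.0706, and 0.0376 with the replicate block).

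**Figure D2:**
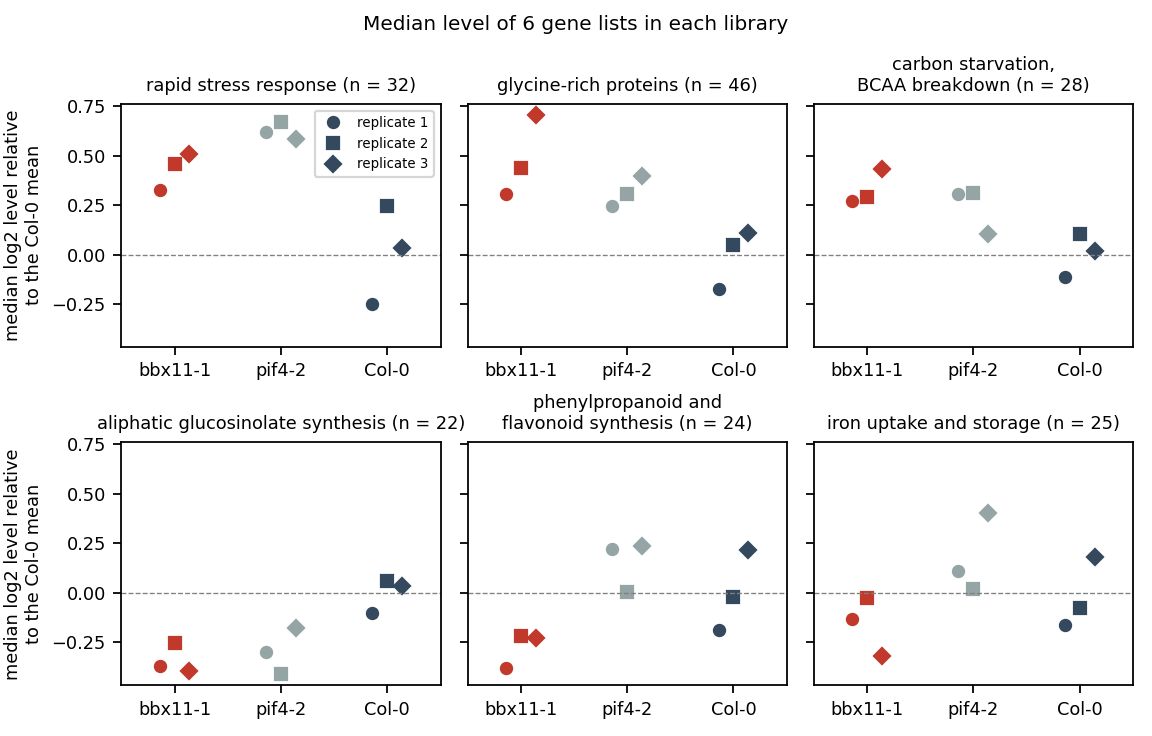
Median log2 level relative to the Col-0 mean (y axis) of 6 gene lists in each library of *bbx11-1*, *pif4-2* and Col-0 (x axis), symbols marking the replicate number. In the stress, glycine-rich and carbon starvation panels the *bbx11-1* libraries lie above all Col-0 libraries. The *pif4-2* libraries do so in the stress and glycine-rich panels. In the carbon starvation panel *pif4-2* replicate 3 and Col-0 replicate 2 both lie at 0.10. In the aliphatic glucosinolate panel the libraries of both mutants are lower than all of Col-0, and in the flavonoid panel only those of *bbx11-1* are. In the iron panel *bbx11-1* and Col-0 overlap.

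Genes of aliphatic glucosinolate synthesis, the route from methionine to sulphur-rich defence compounds, lay below Col-0 as a group, by small differences. All 22 tested members had log2 differences below 0, with a median of −0.33 and pair medians of −0.28, −0.28 and −0.39. At 12 (54.5%) every *bbx11-1* library lay below every Col-0 library, and at 18 (81.8%, against 10.3% of all loci) without Col-0 replicate 1. No member passed the limma test in the fit of 9 libraries or with its replicate block, 6 did with the block in the 6 libraries alone and 1 without Col-0 replicate 1, while 13 had an unadjusted p below 0.05. Leaving out single libraries kept the median between −0.35 and −0.30. The list lay below Col-0 in *pif4-2* as well. Library medians relative to the Col-0 mean were −0.37, −0.25 and −0.40 in *bbx11-1*, −0.30, −0.41 and −0.18 in *pif4-2*, and −0.10, 0.06 and 0.04 in Col-0.

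Chain elongation genes came first in the pathway. *BCAT4*, which starts the elongation of methionine, was at 29.2, 33.1 and 25.7 FPKM in *bbx11-1*, against 35.7, 51.9 and 48.6 FPKM in Col-0 (log2 fold change −0.61, SE 0.15, adjusted p = 0.124), and the isopropylmalate dehydrogenase *IMD1* at 72.5, 75.8 and 64.2 FPKM in *bbx11-1*, against 88.1, 102.4 and 92.5 FPKM in Col-0 (−0.41, SE 0.10, adjusted p = 0.124). *IIL1*, the large isomerase subunit and the most abundant member, was at 152.8, 156.9 and 152.7 FPKM in *bbx11-1*, against 169.0, 178.3 and 177.0 FPKM in Col-0. Its groups did not overlap. Of the core enzymes, *CYP83A1*, which oxidizes the aldoximes, was at 62.7, 71.5 and 56.3 FPKM in *bbx11-1*, at 58.9, 60.3 and 68.5 FPKM in *pif4-2*, and at 85.4, 96.7 and 83.4 FPKM in Col-0 (−0.48 in *bbx11-1*, SE 0.10, adjusted p = 0.0793). The sulfotransferase *SOT18* was at 27.9, 30.6 and 27.1 FPKM in *bbx11-1*, against 35.3, 37.3 and 36.1 FPKM in Col-0 (−0.34, SE 0.08, adjusted p = 0.12). The regulators *MYB28*, *MYB29* and *MYB76* had log2 fold changes of −0.16, −0.36 and −0.71, and only for *MYB76*, below 2 FPKM in all 6 libraries, did the groups not overlap. The indolic branch had a median of −0.09 over 8 genes. Its regulator *MYB51* was at 13.7, 11.8 and 10.5 FPKM in *bbx11-1*, against 6.69, 8.01 and 7.76 FPKM in Col-0 (log2 fold change 0.64, SE 0.12, adjusted p = 0.0538, and 0.0376 with the replicate block).

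Phenylpropanoid and flavonoid genes lay mostly below Col-0. Of 24 tested, 11 (45.8%) lay below Col-0 without overlap and 0 above, with a median of −0.28 and pair medians of −0.22, −0.20 and −0.55. No member passed the limma test in the fit of 9 libraries, with or without the block, 2 passed with the block in the 6 libraries alone and 1 with a minimum mean of 5 FPKM, and 11 had an unadjusted p below 0.05. *TT4*, the chalcone synthase that commits the pathway to flavonoids, was at 44.8, 48.6 and 30.6 FPKM in *bbx11-1*, at 91.3, 67.2 and 91.5 FPKM in *pif4-2*, and at 62.3, 66.3 and 77.3 FPKM in Col-0 (log2 fold change −0.75 in *bbx11-1*, SE 0.17, adjusted p = 0.11). *FLS1*, the flavonol synthase, was at 13.1, 13.5 and 10.5 FPKM in *bbx11-1*, at 24.2, 19.3 and 23.7 FPKM in *pif4-2*, and at 18.0, 19.2 and 18.8 FPKM in Col-0 (−0.58, SE 0.11, adjusted p = 0.058). *CHIL*, the chalcone isomerase-like protein, was at 15.04, 15.8 and 13.8 FPKM in *bbx11-1*, against 20.1, 21.7 and 26.4 FPKM in Col-0 (−0.59, SE 0.12, adjusted p = 0.0706). The *bbx11-1* libraries were the lowest of the 9 for these genes. *LDOX* of the anthocyanin branch and *GSTF12*, which is needed for anthocyanin transport to the vacuole, had log2 fold changes of −0.71 and −0.79 (adjusted p = 0.224 and 0.23). Upstream, the phenylalanine ammonia-lyases *PAL1*, *PAL2*, *PAL3* and *PAL4* were at 0.00, −0.05, 0.12 and 0.21 with overlapping groups. Without Col-0 replicate 1 the median was −0.49.

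**Figure D3:**
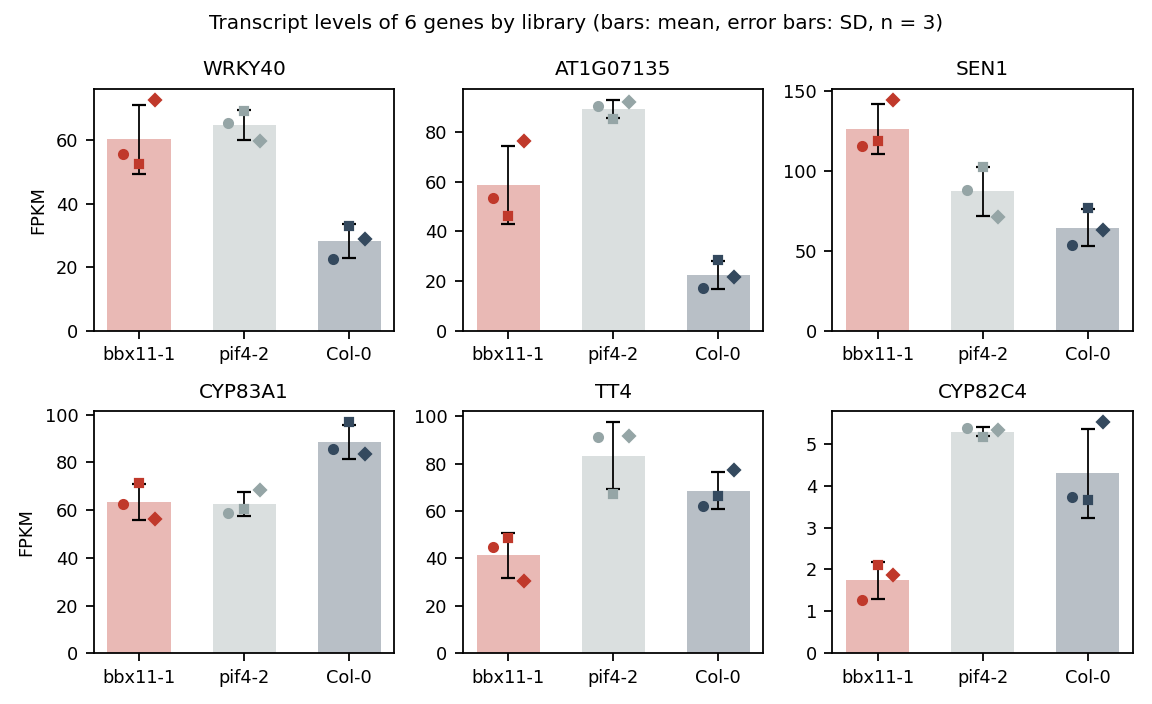
FPKM (y axis) of *WRKY40*, *AT1G07135*, *SEN1* (*AT4G35770*), *CYP83A1*, *TT4* and *CYP82C4* in *bbx11-1*, *pif4-2* and Col-0 (x axis); points are libraries, bars means and error bars SD (n = 3). For each gene the 3 *bbx11-1* points lie on one side of the 3 Col-0 points, above for the first 3 genes and below for the others.

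Among iron genes, 6 of 25 (24.0%) were lower without overlap and 1 was higher (median −0.18). *CYP82C4*, which makes the catecholic coumarin sideretin in iron-poor roots, was at 1.26, 2.11 and 1.86 FPKM in *bbx11-1*, at 5.37, 5.16 and 5.33 FPKM in *pif4-2*, and at 3.72, 3.65 and 5.51 FPKM in Col-0 (log2 fold change −1.09 in *bbx11-1*, SE 0.18, adjusted p = 0.0267). *NAS2*, a nicotianamine synthase, was at 1.38, 1.75 and 1.43 FPKM in *bbx11-1*, against 3.06, 3.01 and 4.19 FPKM in Col-0 (−0.95, SE 0.15, adjusted p = 0.0237). *AT3G13610*, the feruloyl-CoA hydroxylase of coumarin synthesis also called F6'H1, was at 3.90, 3.51 and 4.07 FPKM in *bbx11-1*, against 5.69, 5.41 and 6.12 FPKM in Col-0 (−0.53, SE 0.10, adjusted p = 0.0475). Levels of all 3 were low, and *bbx11-1* was below both other genotypes. *CYP82C4* and *NAS2* lost their calls without Col-0 replicate 1 or 3 or *bbx11-1* replicate 1 or 3 (adjusted p up to 0.0911 and 0.101), *AT3G13610* in all 6 fits with a library left out (up to 0.138), and the median of the list came to −0.08 without Col-0 replicate 3. *FRO2*, the ferric reductase, was at 1.35, 2.38 and 2.10 FPKM in *bbx11-1*, against 2.57, 2.63 and 4.53 FPKM in Col-0, and the transporter *IRT1* overlapped (−0.51). *FER1*, the ferritin and most abundant member, was at 246.4, 219.0 and 197.2 FPKM in *bbx11-1*, against 221.1, 155.0 and 223.3 FPKM in Col-0. *RFNR2*, a root-type ferredoxin reductase that serves nitrite reduction, fell as well, to 24.0, 25.1 and 21.2 FPKM in *bbx11-1*, against 32.2, 30.7 and 33.7 FPKM in Col-0 (−0.46, SE 0.08, adjusted p = 0.0384), a call lost without Col-0 replicate 1 or 3 or *bbx11-1* replicate 1 or 3 (up to 0.131).

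Photosynthesis lists had medians near or a little below 0. All 21 nuclear antenna genes had log2 differences below 0, with a median of −0.15, but 2 had groups that did not overlap. *LHCB2.3*, an antenna protein of photosystem II, was at 253.6, 261.1 and 203.2 FPKM in *bbx11-1*, against 348.7, 340.3 and 305.9 FPKM in Col-0 (log2 fold change −0.48, SE 0.10, adjusted p = 0.0793, and 0.0301 with the replicate block). *CAB1*, the most abundant, was at 16007, 13171 and 13871 FPKM in *bbx11-1*, against 18088, 15638 and 11296 FPKM in Col-0. The antenna genes are near-identical copies in part, so their separate values are uncertain. Nuclear photosystem subunits (33 genes, median −0.10), chlorophyll and haem synthesis (24 genes, −0.08) and RBCS (4 genes, 0.01) had no member past the test. Of 41 histone genes, 9 (22%) were lower and 2 higher without overlap (median −0.13), none past the test and 1 lower with the replicate block. Glutathione transferases (34 genes, −0.14), class III peroxidases (50 genes, −0.11), heat shock proteins and factors (68 genes, −0.01) and cyclins (26 genes, −0.14) likewise had no member past the test.

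Chloroplast-encoded loci had a median of 0.37 over 115 tested, with 19 (16.5%) higher and 0 lower without overlap. Their sum was 44865, 28855 and 27648 FPKM in *bbx11-1*, against 36001, 27787 and 24607 FPKM in Col-0. Replicate 1 was the highest library of both genotypes, and without *bbx11-1* replicate 1 the median was 0.17. *ATCG01070* was at 27.2, 20.6 and 21.2 FPKM in *bbx11-1*, against 13.7, 12.5 and 15.2 FPKM in Col-0 (log2 fold change 0.71, SE 0.12, adjusted p = 0.0314), and with *ATCG00720* it made the 2 chloroplast calls, which were 9 with the replicate block. Both were lost in 5 of the 6 fits with a library left out (up to 0.0885 and 0.164) and in the fit of the 6 libraries alone. The 23 mitochondrion-encoded loci had a median of 0.35 with 0 calls. mRNA had been selected by its poly(A) tail, which most organelle transcripts lack.

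The loci that fell most were outside these pathways. *AT2G15750*, *AT4G01980*, *SADHU3-2* and *AT4G08093* are annotated as pseudogenes, or as a transcribed pseudogene in the last case. *AT2G15750* was listed at 0, 0 and 0.07 FPKM in *bbx11-1*, at 0.06, 0 and 0.11 FPKM in *pif4-2*, and at 3.77, 2.92 and 2.92 FPKM in Col-0 (log2 fold change −2.82 on the log2(FPKM + 0.5) scale, SE 0.21, adjusted p = 0.00041). *AT4G01980* was at 0.06, 0 and 0.06 FPKM in *bbx11-1*, against 3.63, 1.83 and 2.59 FPKM in Col-0, and *AT4G08093* was listed at 0 in all *bbx11-1* libraries, against 1.86, 1.48 and 1.38 FPKM in Col-0. These transcripts were all but missing from *bbx11-1* and from *pif4-2*, where *AT4G01980* was at 0, 0 and 0.20 FPKM and *AT4G08093* at 0.07, 0.14 and 0.12 FPKM. *SADHU3-2* had values on opposite sides of Col-0 in the mutants, at 0.95, 0.63 and 0.90 FPKM in *bbx11-1*, 21.1, 32.9 and 30.6 FPKM in *pif4-2*, and 5.13, 6.40 and 5.38 FPKM in Col-0. *QQS*, an Arabidopsis gene of starch metabolism, ranked likewise, at 0.46, 0.35 and 0.39 FPKM in *bbx11-1*, 7.16, 6.11 and 8.97 FPKM in *pif4-2*, and 1.91, 1.79 and 1.72 FPKM in Col-0. *AT5G24240*, a phosphatidylinositol 4-kinase gamma-like gene, was at 0.09, 0.06 and 0.24 FPKM in *bbx11-1* and at 0.25, 0.33 and 0.32 FPKM in *pif4-2*, against 1.19 to 2.15 FPKM in Col-0.

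Of the remaining lower calls, *AT1G66100*, a thionin, was at 4.59, 5.16 and 4.52 FPKM in *bbx11-1*, at 14.7, 12.3 and 14.6 FPKM in *pif4-2*, and at 9.96, 12.9 and 13.8 FPKM in Col-0 (log2 fold change −1.26, SE 0.13, adjusted p = 0.00308). *NOGC1*, annotated as a flavin-containing monooxygenase, was at 2.25, 1.64 and 2.00 FPKM in *bbx11-1*, at 1.53, 2.26 and 1.59 FPKM in *pif4-2*, and at 5.79, 6.10 and 5.40 FPKM in Col-0 (−1.35, SE 0.15, adjusted p = 0.00434). The *pif4-2* values of *AT1G66100* overlapped those of Col-0, while those of *NOGC1* overlapped those of *bbx11-1*. *AT3G44006* and the non-coding *AT1G67105* had log2 fold changes of −1.61 each. Over all 157 tested pseudogenes the median was 0.00, with 10 higher and 10 lower without overlap. The other higher calls were *AT2G01008*, *AT4G36230* and *AT3G10930*, of which *AT3G10930* was at 8.19, 8.51 and 11.7 FPKM in *bbx11-1*, against 3.85, 5.08 and 3.67 FPKM in Col-0, the transcribed pseudogene *AT1G05135* and the non-coding *AT3G12965*.

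Read by position, 16 of the 33 lower loci lay side by side on chromosome 4. None of these 16 passed the limma test when only the 6 libraries compared were fitted (adjusted p from 0.0647 to 0.157). From *AT4G34450* to *AT4G34881* (16470736 to 16618573 in TAIR10.1, 147.8 kb), all 37 consecutive tested loci had log2 differences below 0, and at 31 every *bbx11-1* library lay below every Col-0 library. The median was −0.52, with a range from −0.77 to −0.13, which is a level of 0.689 of that in Col-0, and no locus there passed the 2-fold threshold. The stretch was found after the values were seen, as the longest run of tested loci on one side of 0, and is described without a test. That all its loci lie below 0 follows from this rule. The next longest runs held 16 loci each, with medians of −0.08 and 0.11. The medians of the replicate pairs were −0.57, −0.51 and −0.52, and the library medians relative to the Col-0 mean were −0.49, −0.58 and −0.52 in *bbx11-1*, −0.53, −0.57 and −0.57 in *pif4-2*, and 0.13, −0.06 and −0.02 in Col-0. The 20 tested loci before and after it had medians of −0.01 and −0.03. Running medians of 15 loci reached −0.60 in the stretch and lay between −0.22 and 0.28 elsewhere.

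The genes of the stretch have varied roles. *AVA-P1*, a subunit of the vacuolar proton pump, was at 148.0, 143.8 and 149.8 FPKM in *bbx11-1*, against 226.6, 218.6 and 209.8 FPKM in Col-0 (log2 fold change −0.57, adjusted p = 0.00434). *SQS1*, the squalene synthase of sterol synthesis, was at 46.4, 44.5 and 43.8 FPKM in *bbx11-1*, against 75.3, 64.6 and 63.2 FPKM in Col-0 (−0.58, adjusted p = 0.0129). The groups of both were well apart, and the *bbx11-1* libraries were close to each other. The other members past the test include *AT4G34450*, a coatomer subunit, *AGB1*, the G protein beta subunit, *CAP1*, an actin regulator, and *THY-2*, a thymidylate synthase. The stretch holds 6 of the 56 tested SAUR genes, small auxin-up RNAs, whose family median was −0.13 with it and −0.06 outside it. Of the 50 SAUR genes outside it, 8 were lower without overlap. Without the stretch, and with p-values adjusted again, 38 loci were higher and 15 lower, and *AT3G04640*, *AT3G29000* and *AT4G36230* lost their calls.

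**Figure D4:**
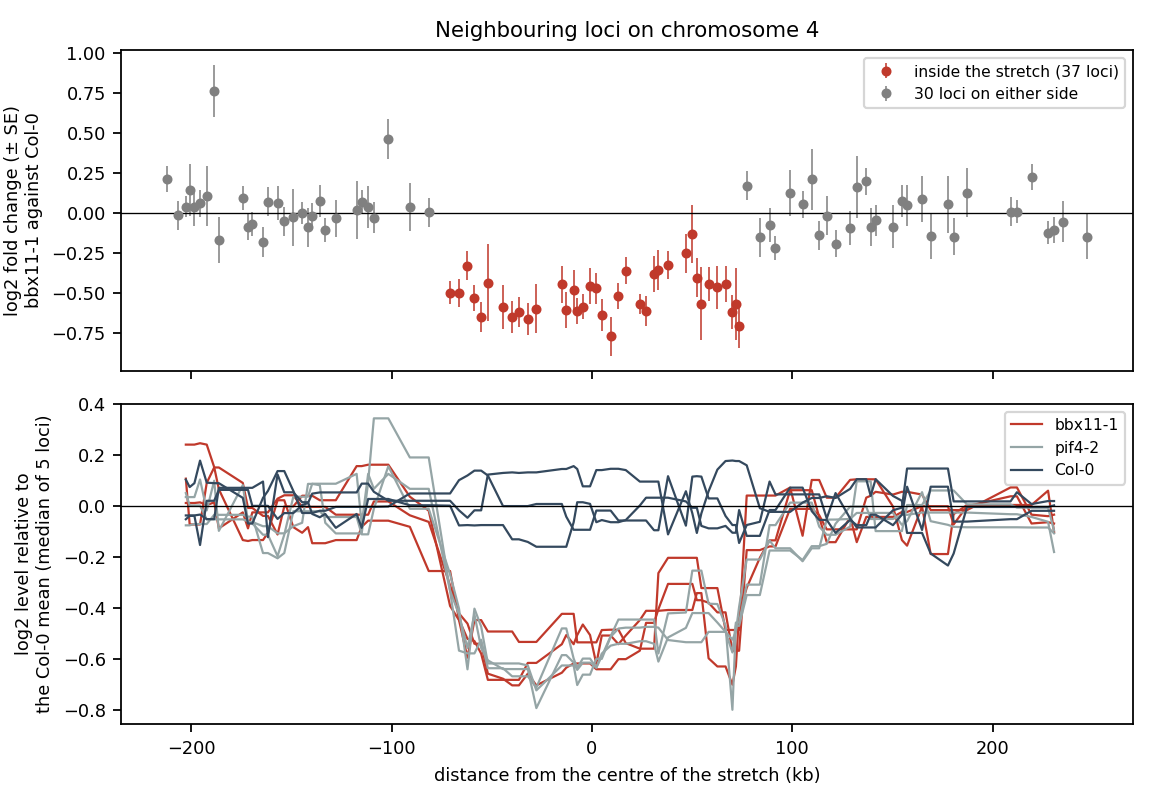
Top, log2 fold change (*bbx11-1* minus Col-0) with SE of the 37 loci of the chromosome 4 stretch (red) and of 30 tested loci on either side (grey) against the distance in kb from the centre of the stretch. Bottom, running median over 5 loci of the level relative to the Col-0 mean in each library; *bbx11-1* and *pif4-2* lie near −0.5 inside the stretch and all genotypes near 0 outside it.

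The large housekeeping families had medians near 0. Of 354 ribosomal protein genes 259 had log2 differences below 0, with a median of −0.08, and 15 were higher and 21 lower without overlap. Both lower calls lie in the chromosome 4 stretch, and the higher call is *AT1G56045*, one of the genes of the small L41 peptide (log2 fold change 0.91, adjusted p = 0.0278), which was lost in 4 of the 6 fits with a library left out (up to 0.115). With the replicate block 4 ribosomal protein genes were higher. Of 240 pentatricopeptide repeat genes, 10 were higher and 8 lower (median 0.02), and the 43 proteasome genes had a median of −0.04. The bHLH (90 genes), NAC (60 genes) and MYB (67 genes) lists, taken by annotation name, had no member past the limma test in the fit without a block, with medians of 0.00, 0.00 and −0.04, and 7, 5 and 12 members had an unadjusted p below 0.05. With the replicate block 1 NAC gene and *MYB51* passed. *bHLH071*, which the bHLH list leaves out, fell to 3.74, 4.98 and 4.08 FPKM in *bbx11-1*, against 7.68, 6.41 and 8.56 FPKM in Col-0 (log2 fold change −0.76, SE 0.13, adjusted p = 0.036), a call lost in 4 of the 6 fits with a library left out (up to 0.143). None of the 28 tested B-box genes, *BBX11* included, passed the test (median −0.04). The 16 shade and PIF-target factors had a median of 0.00.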

How the data were processed

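Libraries were made from poly(A) RNA of whole seedlings. FPKM values (to 2 decimals) were used as the authors deposited them; their methods name HISAT2, HTSeq, edgeR and the TAIR10 genome, while the step to FPKM, the strand setting and the treatment of reads with several alignments are not given in the sources used here. Only FPKM values were analysed. Total counts are not part of such a table, so depth was read from the spacing of low values (loci under 400 nt and 6 FPKM); 71.4% to 75.3% of these were whole reads within the rounding of 0.005 FPKM, so no count test was run. Precision is given as SE or as the spread over 3 libraries.

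Each of the 19019 loci that reached a mean of 1 FPKM in either genotype was tested as log2(FPKM + 0.5) with limma 3.58.1 (R 4.3.3, moderated variance with intensity trend), fitted to all 9 libraries (6 residual degrees of freedom) with the contrast *bbx11-1* minus Col-0 and Benjamini-Hochberg adjustment over all tested loci. A call needed an adjusted p below 0.05 and a 2-fold change; calls without the fold threshold are named as such. On this scale the changes of low genes are understated. With 3 libraries a genotype, p-values measure the spread between biological replicates, pooled over *bbx11-1*, Col-0 and *pif4-2*. The median SD on the log2 scale was 0.135 in *bbx11-1*, 0.149 in Col-0 and 0.089 in *pif4-2*. The pooled spread thus takes in a genotype outside the contrast whose libraries lay closer together. In simulated data on the 19019 loci of this comparison, 89% of genes changed by 1.2 and 99% of those changed by 2 on the log2 scale were called. Recovery with replicate 1 apart from the others, or with same-numbered libraries deviating together, was not tested. Of the 17 higher and 11 lower calls from the real libraries, 2 and 6 were kept when only the 6 libraries compared were fitted. Same-numbered *bbx11-1* and Col-0 libraries deviated together from their genotype means (r across loci 0.55, 0.29 and 0.28). Libraries of unlike number had r between −0.41 and 0.20. Since the 3 deviations of a genotype sum to 0, these values are not independent. The fit with the replicate number as a block (4 residual degrees of freedom) stands beside calls named here that it changes. This block was chosen from these values, and a paired design is not stated in the sources used here.

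Gene lists (67) were taken from annotation names and textbook pathways, so a family member annotated otherwise is left out. Lists can share members: the rapid stress list also holds genes of the WRKY, ZAT and ERF lists, such as *WRKY33*, *WRKY40*, *RHL41*, *STZ* and *ERF4*. Their counts and medians are therefore not independent. The lists and the loci described were chosen with earlier results of these data known, and 37 loci were removed from lists after values were seen, so lists are described by counts and medians with no test. Genes were named by rule: the study's light and auxin genes, every called gene, and per list the called members, up to 4 of the smallest p with a mean of at least 2 FPKM and the most abundant member; others were named for their place in a pathway after values were seen. Names and coordinates came from RefSeq TAIR10.1, which held 32835 of the 33602 loci, and promoters are the 250 bases upstream of its gene starts. Alternatives changed the pseudocount, filter, scaling, trend, weights, loci, samples, block, GC and length correction and fold threshold, and left out each library. Figures were drawn with matplotlib 3.10.9 in Python 3.11.15.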

Additional observations from a re-analysis of the deposited data

How the results depend on the processing

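The counts of loci called at 2-fold (17 higher, 11 lower) moved with the choice of libraries and variance model. They were 2 higher and 6 lower when only the 6 libraries compared were fitted, 7 higher with library weights, 3 higher without a filter on low values, 9 higher without the intensity trend and 5 lower with a minimum mean of 5 FPKM. Without a fold threshold they were 53 and 33, and at 1.5-fold 41 and 25. With a replicate block, which pairs same-numbered libraries, they were 24 and 13, with all 28 calls kept, and 32 higher in the block fit of the 6 libraries alone. Leaving out single libraries gave 5 to 32 higher and 8 to 11 lower. GC and length correction gave 12 and 11, and 34 and 36 without a fold threshold, against 53 and 33. No gene past the test changed direction, and the median of all loci stayed between −0.02 and 0.02. The medians of 33 of the 67 lists, most of them near 0, took both signs over the alternatives: stomatal lineage markers had 0.01 with a minimum mean of 5 FPKM, and XTH genes −0.07, cellulose synthases −0.04 and type-A response regulators 0.03 without Col-0 replicate 1. Of the alternatives for named genes, 5320 kept their side of the threshold, 296 lost it and 84 gained it; list medians moved by more than the replicate spread in 104 of 1338.

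Most list results rest on small differences in many genes, with 3 libraries a genotype and replicate 1 apart from the others. Values under about 1 FPKM stand on few reads. The cause of the changes between settings was not tested.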
